A study of Orbicella faveolata with 18 samples.

Results

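Of 1099 cDNA clones of the coral Montastraea faveolata that were measured in embryos of 2 ages, 60 had a higher level 48 hours after fertilization than 12 hours after it at each of 3 temperatures. The clones were chosen by their mean log2 ratios: one counted when its mean after 48 hours exceeded that after 12 hours by 0.8 or more at 27.5, 29 and 31.5°C alike. Each of the 6 conditions also had to hold 2 or 3 measured arrays of the clone, which was so for 1099 of the 1218 clones in the table. The difference was met by 64 clones, 5.82% of those tested. Of these, 3 clones annotated as ribosomal proteins and 1 clone annotated as a universal stress protein (AOSF1521) were left out by name. A fall of the same size at each temperature was found in 59 clones. Because the difference between 48 and 12 hours chose the clones, it is described below as the rise and is not tested.

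The embryos came from gametes of several colonies and carried no algal symbionts. They were fertilized at 1 common temperature, moved to 27.5, 29 or 31.5°C, and sampled after 12 and after 48 hours at each temperature, which gives 6 groups. The fertilization temperature lay above 27.5 and 29°C and below 31.5°C. The study cautions that this might have affected expression in part, the 12-hour samples above all. Embryos from all containers of a temperature were combined at each time point into 1 sample, from which RNA was isolated once and put on 3 technical arrays. Every array set this RNA, in Cy5, against a pooled reference in Cy3, so that a value of 0 means the level of the pool. Errors and intervals given here therefore cover hybridization and not differences between cultures. For each clone, 1 spread over the 6 conditions gave every mean, and every rise, a 95% interval, and a difference was called where the 2 intervals compared lay apart. The limit printed beside a difference is the size at which this happens, both half-widths added. Both time points of a temperature drew on the same containers, so stage and time in culture cannot be told apart in the rise, nor container and temperature in a comparison of temperatures.

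An early animal embryo lives first on RNA and protein that its mother laid down in the egg, and its own genome takes over as cleavage ends. In corals the ball of cells then folds inward to form an outer and an inner layer, and the embryo becomes a swimming, ciliated larva that feeds on stored yolk. Iron and oxygen metabolism, the entry of new proteins into the secretory route and the breakdown of protein in lysosomes are general functions of its cells. The RNA is that of whole embryos, so more cells of a type and more RNA per cell cannot be told apart.

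The arrays held 1616 to 3365 spots with usable signal in both channels, and their median log2 ratios ranged from -0.08 to 0.05. The median technical spread was 0.22 among the 60 clones and 0.20 among all tested clones. Replicate 1 of 31.5°C after 12 hours correlated with the other arrays of its RNA at only 0.55 and 0.57, and replicate 1 of 29°C after 48 hours at 0.59 and 0.69. Replicates 1 and 2 of 27.5°C after 12 hours came from a second session of image analysis. On the arrays of that condition 79 to 241 clones had no value, against at most 26 on any other array, and 11 of the 60 clones had only 2 values there. The rule applied without replicate 1 of 31.5°C after 12 hours kept 54 of the 60 clones. Leaving out both arrays of the second session left 1 array at 27.5°C after 12 hours, so only 1 value was asked for there. With this looser filter 52 of the 60 were kept. All values given below without these 2 arrays rest on that 1 array at 27.5°C after 12 hours. Leaving out replicate 2 of 27.5°C after 12 hours kept 47, the fewest for any single array, since clones then had to have both remaining values.

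All 60 clones had mean ratios below 0 after 12 hours at every temperature. After 48 hours 59 clones were above 0 at 27.5°C, 57 at 29°C and 46 at 31.5°C. Their median level after 48 hours came to 0.55 at 27.5°C, 0.60 at 29°C and 0.40 at 31.5°C, against -1.03, -1.22 and -1.14 after 12 hours in the same order. The 3 arrays of 48 hours all lay above those of 12 hours at each temperature for 59 clones, where 18.7% of all tested clones did so. As the rule fixes most of this count, nothing is read from it. The exception was AOSF1272 at 31.5°C, with 2.25, 2.26 and 2.24 after 48 hours, against 3.05, -2.49 and -1.40 after 12 hours, the 3.05 on the array that stood apart.

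**Figure D1:**
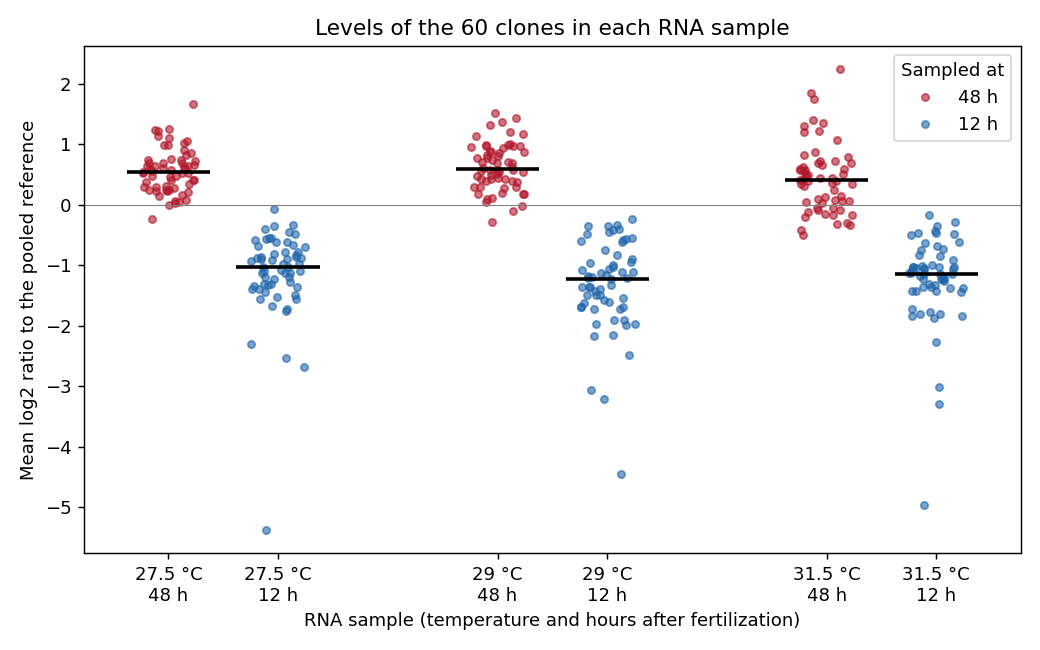
Mean log2 ratio to the pooled reference (vertical axis) of the 60 clones in each of the 6 RNA samples, with 48 hours (red) and 12 hours (blue) side by side for 27.5, 29 and 31.5°C. Each point is 1 clone and each black bar the median, which is 0.55, 0.60 and 0.40 after 48 hours and -1.03, -1.22 and -1.14 after 12 hours. The points of 12 hours all lie below 0.

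The median rise came to 1.56 at 27.5°C, 1.65 at 29°C and 1.37 at 31.5°C, which correspond to 2.94-fold, 3.14-fold and 2.58-fold, beside medians of 0.00, -0.03 and 0.04 over all tested clones. It ranged from 0.84 to 6.64 at 27.5°C, from 0.99 to 5.81 at 29°C and from 0.83 to 5.43 at 31.5°C, with a median SE of 0.18 at each temperature. Averaged over the temperatures, 16 clones rose by more than 2, 16 by between 1.5 and 2, and 28 by at most 1.5. The clones just inside the threshold were CAON911 and CAON1381, each with a lowest rise of 0.83, and AOSF552, with 0.84. Just outside were AOSF1234, with 0.79, AOSC966, with 0.78, and CAON969, annotated as ferritin, with 0.77. In CAON969 the lowest rise was that at 31.5°C, beside 1.60 at 27.5°C and 1.70 at 29°C.

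Gene names were available for 10 of the 60 clones. Another 21 are listed by the study without a name, and 29 are not in its lists. Among all tested clones 259 had a name, 239 were listed without one and 601 were not listed. These lists hold clones that the study found to differ between temperatures on the same arrays, so a clone with a name is one chosen for such a difference, and a count over named clones is not independent evidence about temperature. By the prefix of the identifier, 43 of the 60 clones (71.7%) were of the AOSF set, which held 45.6% of all tested clones. The CAON set gave 8 clones (13.3%, against 26.9% of all tested), AOSC gave 5 (8.33%, against 12.3%) and CAOO gave 4 (6.67%, against 8.28%). None of the 75 AOSB clones was among them. What the prefixes stand for is not given in the sources used here, and the shares were not tested.

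By the study's categories, 3 named clones belong to the response to oxidative stress, where 12 clones were tested: catalase, soma ferritin and malate dehydrogenase. Transport gave 2 of 11 clones, Sec61 subunit gamma and major yolk protein, apoptosis gave 1 of 6, cathepsin B, and cytoskeleton and cell adhesion gave 1 of 15, severin. None of the 60 was in the categories DNA (11 tested), RNA (6), metabolism (13), proteolysis (16), transcription (9), signaling (8), proliferation (17), electron transport (13), immune response (3), calcium (1) or response to stress (14), where the universal stress protein left out by name was the 1 clone that met the rise. Translation held 50 tested clones, of which 3 met the rise and were left out by name. The other 3 names, a hypothetical protein, a predicted protein and an Orf2-encoded protein, carry no category.

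The rise was largest at 29°C in 34 clones (56.7%), at 27.5°C in 13 and at 31.5°C in 13. Over all tested clones the difference between 48 and 12 hours was highest at 29°C in 30.5%, at 27.5°C in 29.2% and at 31.5°C in 40.3%. The smallest rise was that at 31.5°C in 29 clones (48.3%, against 37.6% of all), at 27.5°C in 26 (43.3%, against 31.1%) and at 29°C in 5 (8.33%, against 31.3%). An increase in step with temperature was seen in 11 clones (18.3%) and a decrease in step in 10 (16.7%), shares near the 20.2% and 18% of all tested clones. In 9 clones the 3 rises lay within 0.3 of each other, and the median gap between a clone's largest and smallest rise was 0.67. These orders are a description over values that the rule bounds from below. They also include replicate 1 of 29°C after 48 hours, an array that stood apart. Its median over the 60 clones was 0.82, against 0.51 and 0.57 on replicates 2 and 3. Without it the median rise at 29°C was 1.64, and the orders were not counted again, so the share largest at 29°C may depend on it.

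In the comparison of rises at 29 and 27.5°C, 10 of the 60 clones (16.7%) were called, 8 with a larger and 2 with a smaller rise at 29°C, where 8.1% of all tested clones were called (4.64% larger, 3.46% smaller). At 31.5 against 27.5°C, 16 clones (26.7%) were called, 8 larger and 8 smaller at 31.5°C, where 21.3% of all were (9.1% larger, 12.2% smaller). At 31.5 against 29°C, 11 clones (18.3%) were called, 2 larger and 9 smaller at 31.5°C, also beside 21.3% of all (8.64% larger, 12.6% smaller). The median difference of the rises was 0.25, -0.10 and -0.32 in these comparisons, which share RNA samples, and 0.01, 0.02 and 0.02 over all tested clones. In total 25 clones were called in at least 1 of the 3 comparisons and 35 in none, for which a difference was not detectable at this technical error. How many of all tested clones were called in at least 1 of the 3 was not counted, so nothing is read from the 25. With all arrays scaled to the same spread, the split was 5 larger and 3 smaller at 29 against 27.5°C, and 3 larger and 5 smaller at 31.5 against 29°C. The last count was 7 without replicate 3 of 29°C after 12 hours, without replicate 3 of 29°C after 48 hours or without replicate 1 of 31.5°C after 48 hours. Under these alternatives no share of all tested clones was counted.

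All 8 clones with a smaller rise at 31.5 than at 27.5°C were called lower at 31.5°C after 48 hours, and none was called higher at 31.5°C after 12 hours. Of the 8 with a larger rise, 5 were called higher at 31.5°C after 48 hours only, 1 was called lower after 12 hours only, and 2 were called at both time points. Of the 8 with a larger rise at 29 than at 27.5°C, 2 were called higher after 48 hours only, 4 lower after 12 hours only and 2 at both. Of the 2 with a smaller rise at 29°C, 1 was called higher after 12 hours only and 1 at neither time point. The 12-hour part of these comparisons rests on the arrays of 27.5°C that include those of the second session. Of the 9 with a smaller rise at 31.5 than at 29°C, 4 were called lower after 48 hours only, 2 higher after 12 hours only and 3 at both. Of the 2 with a larger rise, 1 was called lower after 12 hours only and 1 at both. The same splits were not taken over all tested clones, so none is read as particular to the clones described here.

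**Figure D2:**
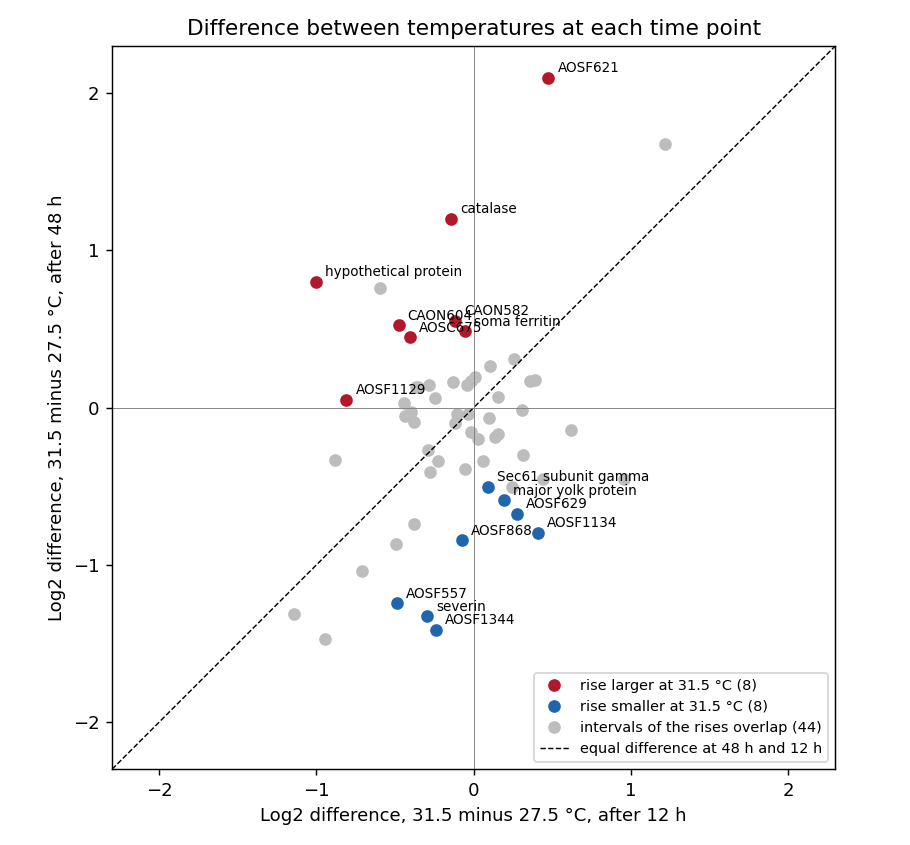
Log2 difference between 31.5 and 27.5°C after 48 hours (vertical axis) against that after 12 hours (horizontal axis) for the 60 clones, where the distance above the dashed line is the difference of the rises. Red marks the 8 clones with a larger rise at 31.5°C, blue the 8 with a smaller one and grey the 44 whose intervals overlapped. The blue clones all lie below 0 after 48 hours, and AOSF621 stands highest, at 2.10.

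With the 6 RNA samples as units, the change of the rise per degree was tested in limma with Benjamini-Hochberg adjustment over all 1099 clones. The slope passed 0.05 in 3 clones (0.273%), none of them among the 60, whose lowest adjusted p was 0.27. At an unadjusted threshold of 0.05, 9 of the 60 clones passed, 4 with a rise that grew with temperature and 5 with one that shrank, where 14.9% of all tested clones passed (7.28% positive, 7.64% negative). The 9 were AOSF1532, AOSF621, catalase (AOSF550) and AOSC675 with positive slopes, and CAOO1104, severin (AOSF1307), AOSF629, AOSF1344 and AOSF1263 with negative ones, of which AOSC675 and AOSF1263 are named here after their values were seen. This fit takes departure from a straight line over the temperatures as its error.

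After 48 hours, 21 of the 60 clones (35%) were called between 31.5 and 27.5°C, 7 higher and 14 lower at 31.5°C, where 23.3% of all tested clones were called (8.64% higher, 14.6% lower). Between 29 and 27.5°C it was 11 (18.3%), 6 higher and 5 lower at 29°C, beside 7.83% of all (2.64% higher, 5.19% lower). Between 31.5 and 29°C it was 13, 1 higher and 12 lower at 31.5°C, beside 17.9% (6.92% higher, 11% lower). All 14 clones lower at 31.5 than at 27.5°C are in the study's lists, which were made from the same difference. With scaled arrays the split between 31.5 and 27.5°C was 4 higher and 14 lower. With the spread taken from only the conditions compared, 33 clones were called between 31.5 and 27.5°C and 20 between 31.5 and 29°C. The shares of all tested clones given above do not apply to these alternatives, under which none was counted.

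After 12 hours, 16 clones (26.7%) were called between 29 and 27.5°C, 4 higher and 12 lower at 29°C, where 17.9% of all were called (6.82% higher, 11.1% lower). Between 31.5 and 27.5°C it was 9 (15%), 1 higher and 8 lower at 31.5°C, beside 16.7% (7.46% higher, 9.28% lower), and between 31.5 and 29°C it was 10, 5 higher and 5 lower at 31.5°C, beside 17% (10% higher, 7.01% lower). The first count was 9 without replicate 3 of 27.5°C or without replicate 3 of 29°C, the second was 4 without replicate 3 of 27.5°C, and the third was 6 without replicate 1 of 29°C. With scaled arrays the first became 1 higher and 5 lower, the second 0 higher and 13 lower, and the third 0 higher and 6 lower. With the spread taken from only the conditions compared, the first was 8 and the second 2. No share of all tested clones was counted under these alternatives.

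Among the clones of oxidative stress and iron, catalase (AOSF550), the enzyme that breaks down hydrogen peroxide, had log2 ratios of 0.19, 0.08 and 0.16 on the arrays of 27.5°C after 48 hours, against -1.41, -1.05 and -0.80 after 12 hours. At 29°C it had 1.09, 1.11 and 1.33 after 48 hours and -1.22, -1.46 and -1.51 after 12 hours. At 31.5°C the values were 1.32, 1.34 and 1.38 after 48 hours and -1.44, -1.38 and -0.88 after 12 hours. After 48 hours the arrays of both warmer temperatures lay above those of 27.5°C, while those of 12 hours overlapped across temperatures. Catalase rose by 1.23 at 27.5°C, 2.57 at 29°C and 2.58 at 31.5°C (SE 0.16 each), or 2.35-fold, 5.95-fold and 5.97-fold. The difference of the rises was 1.34 at both warmer temperatures, with a limit of 0.71, and was called with each of the 18 arrays left out in turn.

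Soma ferritin (CAON1101), a protein that stores iron, had 0.30, 0.20 and 0.22 at 27.5°C after 48 hours and -1.16, -1.51 and -1.49 after 12 hours. It had 0.90, 0.62 and 0.56 at 29°C after 48 hours, against -1.57, -1.54 and -1.59 after 12 hours. It had 0.73, 0.72 and 0.73 at 31.5°C after 48 hours, against -1.42, -1.45 and -1.44 after 12 hours. As for catalase, the arrays of the warmer temperatures lay above those of 27.5°C after 48 hours. Soma ferritin rose by 1.63 at 27.5°C, 2.26 at 29°C and 2.17 at 31.5°C (SE 0.09 each). It was larger by 0.63 at 29°C and by 0.54 at 31.5°C than at 27.5°C, with a limit of 0.41, and both calls stood with each array left out.

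Malate dehydrogenase (AOSF1222), which interconverts malate and oxaloacetate, rose less at 31.5 than at 29°C. It had -0.48, -0.34 and -0.17 at 31.5°C after 48 hours, below its 0.03, 0.49 and 0.35 at 29°C and 0.52, 0.48 and 0.60 at 27.5°C. After 12 hours the arrays ranged from -1.61 to -1.22 at 31.5°C, from -1.46 to -1.26 at 29°C and from -0.97 to -0.72 at 27.5°C. Malate dehydrogenase rose by 1.42 at 27.5°C, 1.65 at 29°C and 1.05 at 31.5°C (SE 0.13 each). The difference between 31.5 and 29°C, -0.60, passed its limit of 0.57 but did not with any 1 of 8 arrays left out, with scaled arrays (-0.56) or with the spread of the conditions compared. That between 31.5 and 27.5°C, -0.37, did not pass, but did without both arrays that stood apart (-0.49). The level after 48 hours was lower at 31.5 than at 27.5°C by a called -0.87, and that after 12 hours by -0.50, a call that was lost without replicate 3 of 27.5°C (-0.41) or without replicate 1 of 31.5°C (-0.38).

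In the secretory route, the gamma subunit of Sec61 (AOSF1278), part of the channel through which new proteins enter the endoplasmic reticulum, had 0.44, 0.50 and 0.42 at 27.5°C after 48 hours and -0.88, -1.28 and -1.25 after 12 hours. At 31.5°C it had -0.02, -0.05 and -0.07 after 48 hours and -1.05, -0.98 and -1.11 after 12 hours. The 2 temperatures were apart after 48 hours and overlapped after 12 hours. Sec61 gamma rose by 1.59 at 27.5°C, 1.48 at 29°C and 1.00 at 31.5°C (SE 0.09 each), and that at 31.5°C was smaller than the others by -0.59 and -0.49, with a limit of 0.39. Both calls stood with each array left out, and neither passed with scaled arrays (-0.49 and -0.29). The clones of the other Sec61 subunits did not meet the rise. Subunit beta (CAOO1095) differed between 48 and 12 hours by 0.39 at 27.5°C, 0.97 at 29°C and -0.08 at 31.5°C. Subunit alpha (CAOO526) differed by -0.19, -0.53 and -0.59 in the same order.

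Cathepsin B (AOSF1172), a protease of lysosomes, had a rise of 1.37 at 27.5°C, 1.65 at 29°C and 0.97 at 31.5°C (SE 0.10 each). Its arrays after 48 hours held 0.15, 0.11 and 0.14 at 31.5°C, against 0.46, 0.40 and 0.44 at 29°C and 0.47, 0.51 and 0.45 at 27.5°C. Those of 31.5°C lay below the rest. The difference of rises between 31.5 and 29°C, -0.68, passed its limit of 0.42. Between these temperatures the level differed by 0.38 after 12 hours and by -0.30 after 48 hours, both called. The call after 48 hours only just passed (-0.2984 against a limit of 0.2981) and was lost with any 1 of 14 arrays left out. That after 12 hours was lost with any 1 of 2. That between 31.5 and 27.5°C, -0.40, did not pass, but did without replicate 2 of 27.5°C after 12 hours (-0.48), without replicate 1 of 31.5°C after 12 hours (-0.52), without both arrays of the second session (-0.51), and with centred (-0.38) or scaled arrays (-0.34).

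Major yolk protein (AOSF642) carries a name known from sea urchins, where it is an iron-binding protein that eggs store. It had 0.97, 1.15 and 1.18 at 27.5°C after 48 hours, against -0.60, -0.46 and -0.58 after 12 hours. At 29°C it had 0.63, 0.65 and 1.19 after 48 hours and -0.38, -0.55 and -0.27 after 12 hours. At 31.5°C it had 0.34, 0.65 and 0.55 after 48 hours and -0.32, -0.44 and -0.31 after 12 hours. After 48 hours the arrays of 31.5°C lay below those of 27.5°C, and after 12 hours above them. Major yolk protein rose by 1.65 at 27.5°C, 1.23 at 29°C and 0.87 at 31.5°C (SE 0.14 each). It was smaller at 31.5 than at 27.5°C by -0.78, past a limit of 0.60, with each array left out. The difference between 29 and 27.5°C, -0.43, did not pass, and did without replicate 3 of 29°C after 48 hours (-0.61).

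Severin (AOSF1307), named after an actin-severing protein of the slime mould Dictyostelium, had a level after 48 hours that was lower at each warmer temperature. The arrays held 0.98, 1.03 and 1.06 at 27.5°C, 0.57, 0.23 and 0.32 at 29°C and -0.38, -0.36 and -0.17 at 31.5°C, with no overlap. After 12 hours they held -0.49, -1.12 and -1.18, then -1.22, -1.11 and -1.01, then -1.51, -1.05 and -1.10, and the temperatures overlapped. Severin rose by 1.95 at 27.5°C, 1.49 at 29°C and 0.92 at 31.5°C (SE 0.17 each), or 3.87-fold, 2.80-fold and 1.89-fold. The difference between 31.5 and 27.5°C, -1.03, passed its limit of 0.75 with each array left out. That between 29 and 27.5°C, -0.46, did not, but passed without replicate 1 of 27.5°C after 12 hours (-0.68), without both arrays of the second session (-0.71) and with scaled arrays (-0.76).

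Of the names without a function, the hypothetical protein AOSF1532, named after a sequence of the fungus Aspergillus nidulans, had the largest rise of the named clones. It had 0.29, 0.45 and 0.50 at 27.5°C after 48 hours, against -1.90, -3.10 and -1.89 after 12 hours. At 29°C it had 1.38, 1.41 and 1.51 after 48 hours and -3.08, -3.22 and -3.34 after 12 hours, and at 31.5°C it had 1.17, 1.21 and 1.27 after 48 hours and -3.25, -3.47 and -3.18 after 12 hours. The warmer arrays lay above those of 27.5°C after 48 hours, and after 12 hours replicate 2 of 27.5°C, from the second session, lay near them. AOSF1532 rose by 2.71 at 27.5°C, 4.65 at 29°C and 4.52 at 31.5°C (SE 0.25 each), or 6.55-fold, 25.1-fold and 22.9-fold. The differences from 27.5°C, 1.94 and 1.81, passed a limit of 1.07 with each array left out and ranged from 1.73 to 2.34 and from 1.60 to 2.21.

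The predicted protein AOSF1123 differed between temperatures at both time points. It had -0.52, -0.42 and -0.29 at 31.5°C after 48 hours, against 0.96, 1.05 and 1.18 at 27.5°C, and -1.56, -1.39 and -1.33 at 31.5°C after 12 hours, against -0.85, -0.42 and -0.17 at 27.5°C. The arrays of 31.5°C lay below those of 27.5°C both times, by a called -1.47 after 48 hours and a called -0.95 after 12 hours. AOSF1123 rose by 1.54 at 27.5°C, 1.22 at 29°C and 1.02 at 31.5°C (SE 0.14 each), and the difference between 31.5 and 27.5°C, -0.53, did not pass its limit of 0.60. It passed without replicate 3 of 27.5°C after 12 hours (-0.68), with scaled arrays (-0.87) and with a replicate block (-0.53). The Orf2-encoded protein AOSF824, with 2 arrays at 27.5°C after 12 hours, had the lowest of the named rises at 27.5°C, 0.89 (SE 0.11), beside 1.17 at 29°C and 1.31 at 31.5°C (SE 0.09 each). The difference between 31.5 and 27.5°C, 0.43, was below its limit of 0.44, and it passed with any 1 of 3 arrays left out, without both arrays of the second session (0.59) and with centred arrays (0.46).

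**Figure D3:**
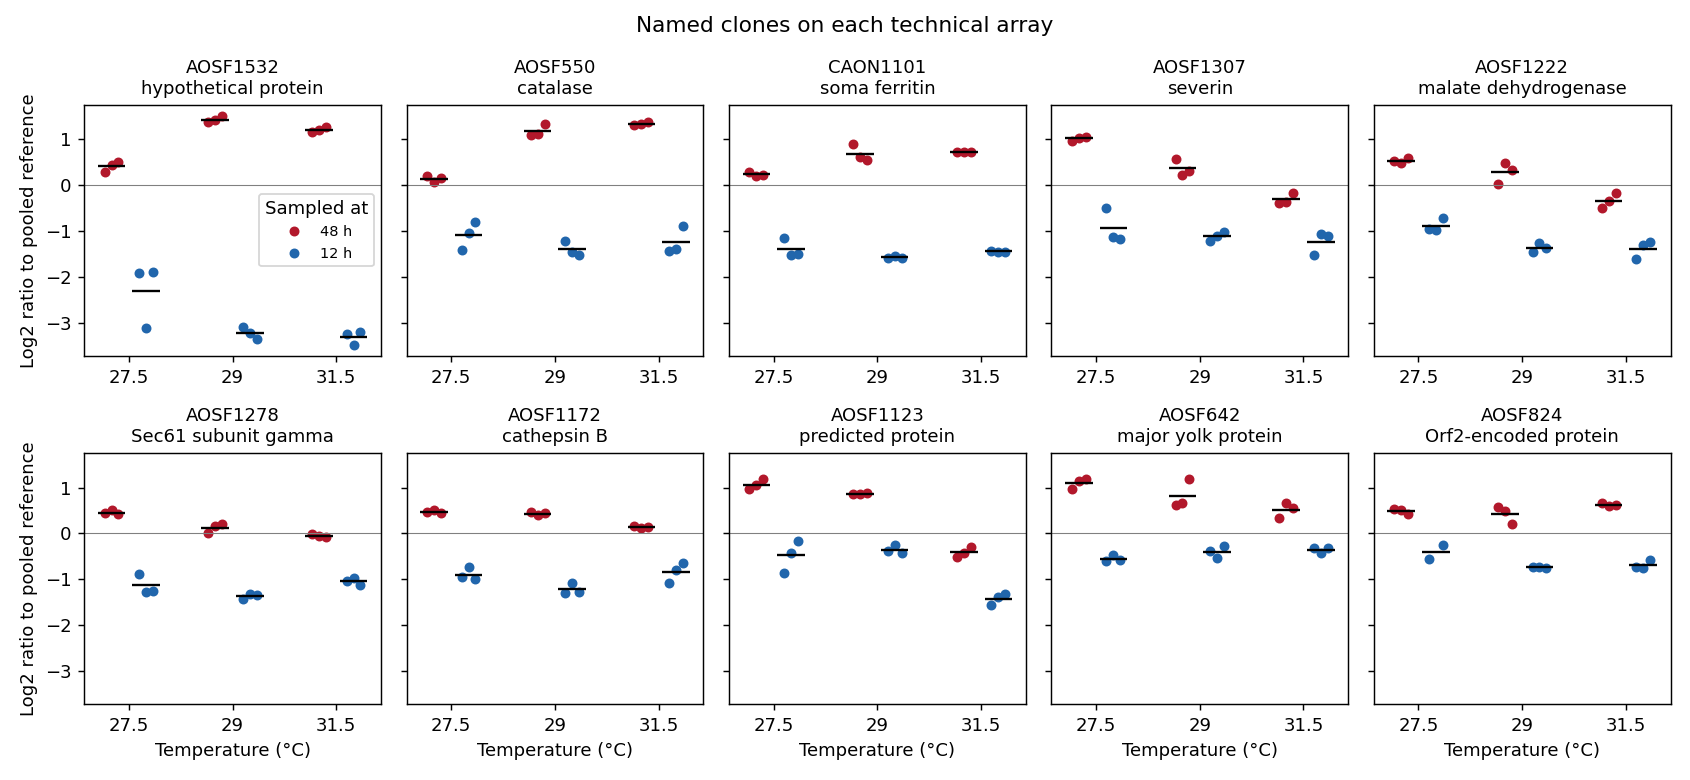
Log2 ratio to the pooled reference (vertical axis) on each technical array for the 10 clones with a name, by temperature, with 48 hours (red) left of 12 hours (blue) and black bars for the means. Catalase and soma ferritin stood higher at 29 and 31.5°C than at 27.5°C after 48 hours, and severin, malate dehydrogenase and AOSF1123 stood lower at 31.5°C.

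Among the clones without a name, AOSF1134 had the largest rise of the 60. It had 1.17, 1.25 and 1.36 at 27.5°C after 48 hours, against -5.16, -5.23 and -5.75 after 12 hours. At 29°C it had 1.43, 1.34 and 1.34 after 48 hours and -3.85, -5.06 and -4.43 after 12 hours, and at 31.5°C it had 0.41, 0.48 and 0.49 after 48 hours and -4.96, -4.99 and -4.97 after 12 hours. After 48 hours the arrays of 31.5°C lay below all others. AOSF1134 rose by 6.64 at 27.5°C, 5.81 at 29°C and 5.43 at 31.5°C (SE 0.23 each), or 99.6-fold, 56.2-fold and 43.2-fold, and it was smaller at 31.5 than at 27.5°C by -1.21, past a limit of 1.01. That call stood with each array left out and did not pass with scaled arrays (-0.33). Whether the signal of this clone after 12 hours was above background was not known, since the table has no such measure and the scanner files name no clones.

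CAON604 had a rise of 3.23 at 27.5°C, 4.26 at 29°C and 4.23 at 31.5°C (SE 0.16 each). It had 0.57, 0.80 and 0.70 at 27.5°C after 48 hours, against 1.48, 1.03 and 1.09 at 29°C and 1.32, 1.00 and 1.32 at 31.5°C. After 12 hours it had -2.42, -2.87 and -2.32 at 27.5°C, against -2.90, -3.23 and -3.05 at 29°C and -2.99, -3.14 and -2.92 at 31.5°C. The warmer arrays were above those of 27.5°C after 48 hours and below them after 12 hours. The differences of the rises, 1.03 and 1.00, passed a limit of 0.70 with each array left out, although with scaled arrays that at 29°C did not (1.03).

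AOSF1267 rose by 2.80 at 27.5°C, 3.37 at 29°C and 2.63 at 31.5°C (SE 0.18 each), with no called difference between rises. That between 31.5 and 29°C, -0.75, passed without replicate 2 of 31.5°C after 12 hours (-0.90), with centred arrays (-0.79) and in limma over the technical arrays, and that between 29 and 27.5°C, 0.57, without replicate 3 of it. Its levels were lower at the warmer temperatures at both times: 0.34, 0.34 and 0.40 at 31.5°C after 48 hours, against 1.53, 1.73 and 1.76 at 27.5°C, and -2.44, -2.57 and -1.79 at 31.5°C after 12 hours, against -0.92, -1.10 and -1.35 at 27.5°C. The differences were -1.32 and -1.14, both called. AOSF1169 rose by 2.59, 3.21 and 2.40 at 27.5, 29 and 31.5°C with an SE of 0.70, the widest of the 20 clones described singly. At 31.5°C after 12 hours it was above 0 on the array that stood apart and at -2.24 and -1.96 on the others, and without that array the rise at 31.5°C was 3.49. For AOSF1272, named after its values were seen, the same rise was 4.19 without that array and 2.53 with it, and no other of the 60 clones moved by more than 0.5.

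The difference of the rises between 31.5 and 27.5°C was largest, among clones without a name, in AOSF621. It had -0.19, -0.32 and -0.21 at 27.5°C after 48 hours, 0.79, 1.12 and 1.06 at 29°C and 1.88, 1.76 and 1.93 at 31.5°C, with no overlap between temperatures. After 12 hours it had -1.71, -1.18 and -1.78, then -0.44, -0.38 and -0.65, then -0.69, -1.32 and -1.24, and the arrays of 29°C were the highest. AOSF621 rose by 1.32 at 27.5°C, 1.48 at 29°C and 2.94 at 31.5°C (SE 0.18 each). The rise at 31.5°C was larger by 1.62 than at 27.5°C and by 1.46 than at 29°C, with a limit of 0.78, with each array left out.

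AOSF1129 rose by 1.85 at 27.5°C, 3.12 at 29°C and 2.71 at 31.5°C (SE 0.17 each), and both differences from 27.5°C, 1.27 and 0.86, passed a limit of 0.76. The second was lost with any 1 of 5 arrays left out, and it was 0.70 without replicate 1 of 27.5°C after 12 hours and 0.41 without both arrays of the second session, and it did not pass without both arrays that stood apart (0.86) or with scaled arrays (0.99). The arrays of 48 hours held 0.66, 0.91 and 0.88 at 27.5°C and 0.90, 0.85 and 0.85 at 31.5°C, and overlapped. Those of 12 hours held -0.72, -0.90 and -1.48 at 27.5°C and -1.85, -1.91 and -1.77 at 31.5°C, and did not. AOSF1104 rose by 1.54 at 27.5°C, 3.28 at 29°C and 2.90 at 31.5°C (SE 0.39 each), and the difference at 29°C, 1.73, just passed its limit of 1.69 but did not with any 1 of 15 arrays left out, without both arrays that stood apart (1.57), with scaled arrays (1.41) or in limma over the technical arrays. At 27.5°C after 12 hours this clone had -0.10, -1.48 and -0.10. The difference at 31.5°C, 1.36, did not pass, and did without replicate 2 of 27.5°C after 12 hours (1.81), without both arrays of the second session (1.82) and in limma over the technical arrays.

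At the other end, CAOO1104 rose by 3.22 at 27.5°C (SE 0.36), 2.25 at 29°C and 1.81 at 31.5°C (SE 0.32 each), with a difference between 31.5 and 27.5°C of -1.41 that was below its limit of 1.51. The same difference passed without replicate 1 or 2 of 29°C after 12 hours, with the spread of the conditions compared, in limma over the technical arrays and, at -1.48, with a replicate block. It had 2 arrays at 27.5°C after 12 hours, -2.45 and -2.92. AOSF1344, also with 2 arrays there, rose by 2.01 at 27.5°C (SE 0.21), 1.05 at 29°C and 0.84 at 31.5°C (SE 0.18 each). Its arrays after 48 hours held 1.16, 1.32 and 1.25 at 27.5°C, 0.77, 0.50 and 0.85 at 29°C and -0.01, -0.18 and -0.31 at 31.5°C, in 3 ranges that did not overlap. The rise was smaller at 31.5 than at 27.5°C by -1.17, past a limit of 0.86 with each array left out, and at 29°C by -0.96, a call that was lost without replicate 2 of 27.5°C or without replicate 2 of 29°C after 48 hours (-0.92 and -0.86), without both arrays that stood apart (-0.99), with the spread of the conditions compared and in limma over the technical arrays.

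AOSF629 rose by 1.89 at 27.5°C, 2.09 at 29°C and 0.94 at 31.5°C (SE 0.14 each). After 48 hours it had 0.57, 0.59 and 0.59 at 27.5°C, 0.92, 0.36 and 0.36 at 29°C and -0.12, -0.09 and -0.06 at 31.5°C. The arrays of 31.5°C lay below all others. The differences of the rises, -0.95 from 27.5°C and -1.15 from 29°C, passed a limit of 0.59 with each array left out.

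**Figure D4:**
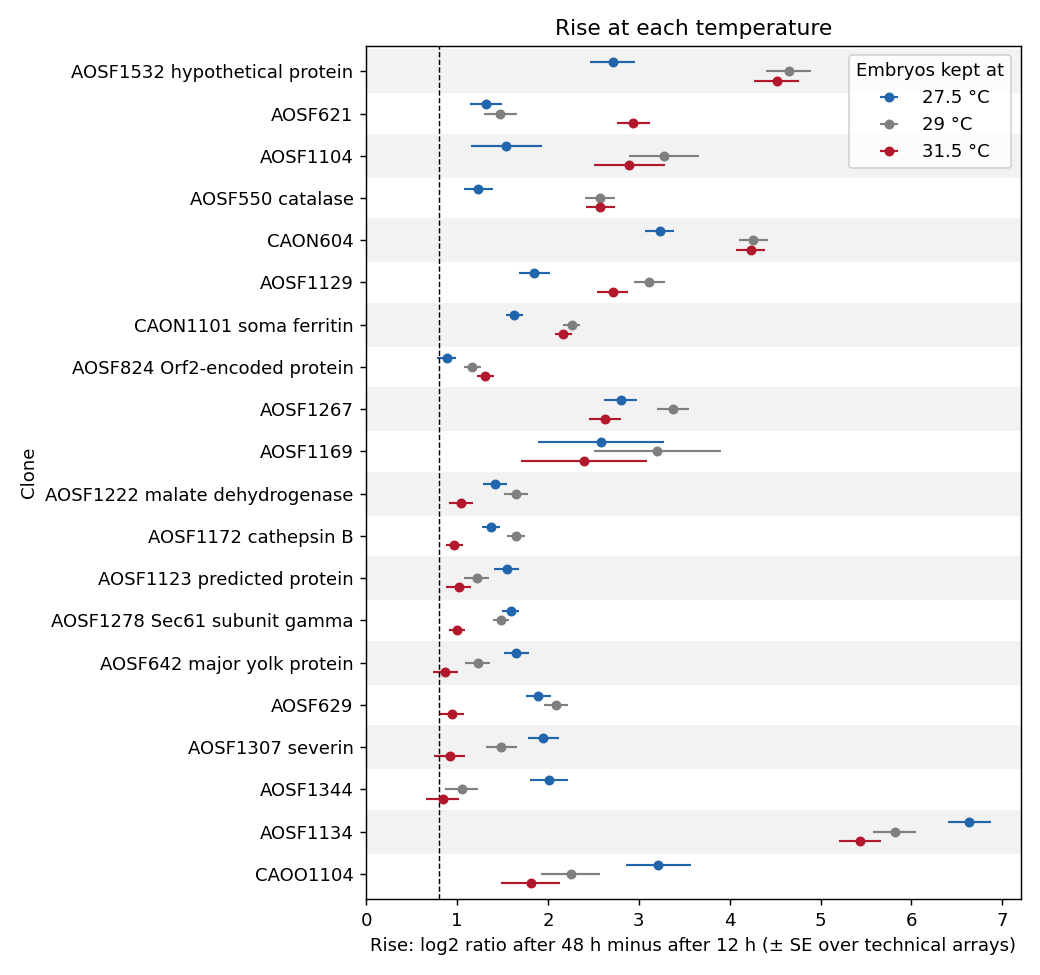
Rise, the log2 ratio after 48 hours minus that after 12 hours (horizontal axis, mean ± SE over technical arrays), at 27.5 (blue), 29 (grey) and 31.5°C (red) for the 20 clones described singly, ordered by the difference between 31.5 and 27.5°C. The dashed line marks the threshold of 0.8, and AOSF1134 stands apart with rises of 6.64, 5.81 and 5.43.

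The other 40 clones, of which 27 are not in the study's lists and 13 are listed without a name, rose by 0.84 to 2.43 at 27.5°C (median 1.49), by 0.99 to 2.97 at 29°C (median 1.61) and by 0.83 to 2.53 at 31.5°C (median 1.33). At 29 against 27.5°C, 2 of them were called with a larger and 1 with a smaller rise, beside 8.1% of all tested clones. At 31.5 against 27.5°C, 2 were called larger and 2 smaller, beside 21.3% of all. Between 31.5 and 29°C, 1 was called with a larger and 5 with a smaller rise at 31.5°C, also beside 21.3%. Over all 60, the 29 clones not in the lists had median rises of 1.48, 1.60 and 1.28 at 27.5, 29 and 31.5°C, the 21 listed without a name 1.77, 2.09 and 1.66, and the 10 with a name 1.57, 1.57 and 1.03. None of the 29 was called between 31.5 and 27.5°C after 48 hours, a split that the making of the lists builds in.

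Of the clones taken as markers, major yolk protein is among the 60. The LWamide neuropeptide clone (CAON1226), of cnidarian nerve cells, differed between 48 and 12 hours by 0.47 at 27.5°C, 0.23 at 29°C and 0.66 at 31.5°C, below the threshold. The Piwi-like clone (AOSF1434), of germ line and stem cells, differed by -1.24, -1.41 and -2.17 in the same order. Another marker, the clone of a GFP-like fluorescent chromoprotein (AOSF1131), lacked 2 measured arrays in some condition and was not among the tested clones. The part of changing cell makeup in the rise was not tested.

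The scanner files, whose spots carry no clone names, were normalized anew. Of 1742 spots with the same filter, 105 (6.03%) rose by 0.8 or more at each temperature after print-tip loess, with median rises of 1.57 at 27.5°C, 1.95 at 29°C and 1.24 at 31.5°C. With each array centred on its median instead, 248 spots (14.2%) did so.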

How the data were processed

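Arrays of spotted M. faveolata cDNAs measured 18 hybridizations of 6 RNA samples. The scanner files as deposited hold each spot's integrated intensity per channel, from which TIGR Spotfinder 2.2.4 had taken off the local background. The series table as deposited holds log2 ratios of Cy5 over Cy3 per clone, which the authors normalized by LOWESS within print tips in TIGR MIDAS. Its log2 scale was checked against spot intensities (median slope 1.03 over 12 clones). How duplicate spots were combined is not given in the sources used here. Spots carry no clone names, so clones were taken from the table without further normalization. The labels' source names give slightly other temperatures than their titles, which were followed. They describe the reference as a pool of 12, 24, 36 and 48 hours and the methods as RNA of all samples. It cancels between conditions.

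The clones, gene lists and markers were chosen with earlier results of these data known. Named singly are the 10 clones with a gene name and, of those without one, the 4 with the largest mean rise and the 4 with the largest positive and the 4 with the largest negative difference of rises between 31.5 and 27.5°C, where CAON604 and AOSF1134 come in under 2 rules each. The 3 clones on each side of the threshold are named by the same rule. AOSF1272, AOSC675 and AOSF1263 were named after their values were seen. Intervals come from a linear model of the 6 conditions with 12 residual degrees of freedom where no value was missing. As technical arrays of 1 isolation are compared, no p is given for them. The slope was fitted in limma 3.58.1 (R 4.3.3), with arrays averaged per RNA sample. Both were tested on simulated data. The other steps used Python 3.11.15 with pandas 2.3.3, numpy 2.4.6, matplotlib 3.10.9 and scipy 1.17.1. Alternatives were other centring, scaling, thresholds, filters, spreads and tests, a block for the replicate number and leaving out each array. Leaving out both arrays of the second image-analysis session, or the array of each time point that correlated least with its RNA, was added after the data were seen. Without the second session 1 array was left at 27.5°C after 12 hours, and the filter asked for only 1 there. The number of arrays limits the technical precision, and with 1 RNA isolation per condition the spread between cultures was not measured.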

Additional observations from a re-analysis of the deposited data

Results flagged for a closer look

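In 8 of the 20 clones described singly, every array of a warmer temperature lay on one side of the arrays of 27.5°C after 48 hours and on the other side after 12 hours. The same count was not taken over all tested clones. Some of the 20 were also chosen for a large difference of rises between 31.5 and 27.5°C. The count is therefore not read as particular to the clones described here. The difference between time points is the difference of the rises. By the technical intervals it was called for AOSF1532, CAON604, CAON1101, AOSF1129, AOSF1134 and AOSF642 at these temperatures and not for AOSF824 or CAOO1104, and between cultures it was not tested. AOSF1532 at 31.5°C was higher by 0.80 after 48 hours and lower after 12 hours (-1.01). CAON604 was higher by 0.51 at 29°C and by 0.52 at 31.5°C after 48 hours, beside -0.52 and -0.48 after 12 hours. Soma ferritin (CAON1101) at 29°C differed by 0.45 after 48 hours and by -0.18 after 12 hours, and the Orf2-encoded protein (AOSF824) at 31.5°C by 0.14 and -0.28. AOSF1129 at 29°C differed by 0.33 after 48 hours and by -0.94 after 12 hours. In the opposite sense, AOSF1134 at 31.5°C differed by -0.80 after 48 hours and by 0.41 after 12 hours, major yolk protein (AOSF642) at 31.5°C by -0.59 and 0.19, and CAOO1104 at 31.5°C by -0.45 and 0.95. In AOSF824 and CAOO1104 the 27.5°C values after 12 hours came from 2 arrays. All of these comparisons use the arrays of 27.5°C after 12 hours, of which 2 are from the second image-analysis session.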

How the results depend on the processing

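In this section, counts called between temperatures or between rises are of the 60 clones alone. No share of all tested clones was counted beside them. With a threshold of 0.6 the rule found 97 clones. Scaling the arrays to the same spread gave 6 clones called after 12 hours between 29 and 27.5°C, and 6 between 31.5 and 29°C. When each comparison used only its own conditions' spread, 8 clones were called between 29 and 27.5°C and 2 between 31.5 and 27.5°C after 12 hours, and 33 between 31.5 and 27.5°C and 20 between 31.5 and 29°C after 48 hours. Without the arrays of the second image-analysis session the slope was called in 0 of all clones by limma (120 at an unadjusted threshold of 0.05), and with technical arrays as units and a replicate block in 172, of which 10 were among the 60. The fit with a replicate block counts arrays of the same RNA as separate units, so its p-values do not cover differences between cultures. Its 172 is not set against the counts with RNA samples as units. Median centring gave 248 spots, with the upward shift over all spots given above. With the replicate number as a block, the counts of clones called after 12 hours were 17, 10 and 9 for 29 against 27.5°C, 31.5 against 27.5°C and 31.5 against 29°C, those after 48 hours were 11, 21 and 13, and those of the rises 11, 18 and 10. Deviations of same-numbered arrays correlated between -0.16 and 0.26, over 0.1 in 7 of 45 pairs. Arrays of different numbers were not set beside them, so whether the numbers pair the samples cannot be judged from these values.

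Leaving out single arrays gave 48 to 64 clones by the rule, and median rises of 1.55 to 1.62 at 27.5°C, 1.64 to 1.72 at 29°C and 1.35 to 1.43 at 31.5°C. In the same order of comparisons, the counts called ranged from 9 to 18, from 4 to 13 and from 6 to 11 after 12 hours, from 8 to 14, from 16 to 23 and from 10 to 16 after 48 hours, and from 8 to 13, from 15 to 19 and from 7 to 11 for the rises. The slope was called in 2 to 9 clones, 9 of them without replicate 2 of 29°C after 48 hours and 5 without replicate 1 of 31.5°C after 48 hours. Of the 180 differences of the 20 clones described singly, 106 kept their side of the limit under every alternative run, and no called difference changed sign. The causes of these shifts were not tested. With 1 RNA isolation per condition, no alternative measures the spread between cultures.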
